A study of Homo sapiens with 4 samples.

Results

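Cyclins and the inhibitors of their kinases were followed in A549 cells that overproduced SAMD9. The 10 genes were taken by symbol from the 58812 gene identifiers counted in every library: the D cyclins CCND1 and CCND3, the E cyclins CCNE1 and CCNE2, the A and B cyclins CCNA2, CCNB1 and CCNB2, and the CIP/KIP inhibitors CDKN1A (p21), CDKN1B (p27) and CDKN1C (p57). A549 is an established line of human lung carcinoma epithelial cells, described in the labels as wild type. In the control group the cells were transfected for 24 hr with 1 µg of pCMV6-Entry, an empty plasmid carrying the CMV promoter. In the SAMD9 group they received, for the same time and at the same dose, a plasmid encoding SAMD9 with Myc and DDK tags, SAMD9 being an interferon-inducible protein known as a restrictor of growth and of poxviruses. Each group had 2 libraries of ribosomal RNA-depleted total RNA. Nothing in the labels says that replicates were grown or transfected apart, and p-values therefore reflect only how these 4 libraries vary, which may be technical. Both groups are bulk RNA of 1 transiently transfected cell line, in which fewer cells of a cycle phase and less RNA per cell cannot be told apart.

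The counts of SAMD9 went with the labels: the controls had 444 and 400, and the SAMD9 group 220123 and 184350. Counts per gene do not separate RNA of the plasmid from that of the cells' own gene. Library totals lay between 29301854 and 39670083 counts, so that 1 count was worth 0.0252 to 0.0341 CPM (counts relative to the library total, the usual scale of depth-adjusted RNA levels). The 8 epithelial markers summed to 6706 and 7543 CPM in empty vector and 7620 and 7355 CPM in SAMD9 libraries, so that the groups overlapped. With the TMM scaling defined below the sums were 6281 and 7085 against 8106 and 7900 CPM, without overlap. Of 6 tested, CDH1 and KRT8 were called higher (log2 fold changes 0.89 and 0.40) and none lower. In 2 of the 8 the counts were 10 or fewer throughout. The fibroblast markers summed to 1.98 and 3.18 CPM in empty vector and 6.15 and 6.08 CPM in SAMD9 libraries, and 5 of 8 never exceeded 10 counts. Of 2 tested, COL1A1 was called higher (log2 fold change 1.60, SE 0.25, edgeR adjusted p = 3.6e-05). The leukocyte markers summed to 5.95 to 6.28 and 6.21 to 6.33 CPM, with 6 of 8 at 10 counts or fewer, and the endothelial markers to 1.37 to 1.64 and 1.06 to 1.14 CPM, with 4 of 6 at 10 counts or fewer. The part of these small sums in the results below was not tested.

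A cyclin binds and activates a cyclin-dependent kinase (CDK), and the cyclins follow one another through the cycle. D cyclins with CDK4 and CDK6 act in G1 and answer to growth signals, E cyclins with CDK2 act at the entry into S phase, cyclin A2 acts in S and G2, and B cyclins with CDK1 drive mitosis. CIP/KIP proteins bind cyclin-CDK complexes, p21 being a classical target of p53 and p27 being controlled largely by degradation of the protein. The transcripts of the A and B cyclins are themselves periodic: the DREAM complex represses them in quiescence and G1, and B-MYB and FOXM1 with the MuvB core activate them in G2 and mitosis.

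In the SAMD9 libraries the cyclins of G2 and mitosis were lower and the D cyclins higher, while the E cyclins were not called. CCNA2 fell by 25.4%, CCNB2 fell by 21.9% and CCNB1 fell by 20.8%, and CCND3 rose by 27.9% and CCND1 by 13.4%. Of the inhibitors, CDKN1B fell by 25.4% and CDKN1A rose by 13.8%. The rises depend on the scaling of the libraries. Scaled by total counts, CCND3 rose by 12.3%, but CCND1 changed by -0.51% and CDKN1A by -0.14%, neither being called. The 4 falls were called with either scaling. Of the 10 genes, 3 were called higher and 4 lower by edgeR's quasi-likelihood test at a Benjamini-Hochberg adjusted p below 0.05, and 3 were not called. Among the 19814 genes tested, 27.5% were called, 15.3% higher and 12.2% lower, and among the 6214 genes with an average of at least 5 log2 CPM, 44.6% were called, 25.9% higher and 18.7% lower. All 10 genes passed the filter on low counts, and their median log2 fold change was 0.03 against -0.01 over all genes tested. In 8 of the 10 the groups did not overlap, as in 62.0% of all genes tested. In size, 9 of the 10 genes were within 0.5 on the log2 scale, as were 13866 of the 19814 genes tested. Of the 6214 genes with an average of at least 5 log2 CPM, 5271 were. The median absolute change was 0.35 in the 10 genes, 0.28 over all genes tested and 0.17 over those 6214.

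The values of the 10 genes and all others from here on are in CPM scaled by edgeR's trimmed mean of M-values (TMM), which sets the libraries equal over most genes. Scaling by total counts moves all log2 fold changes down by 0.19. With that scaling 1 of the 10 genes was called higher (CCND3) and 4 lower, beside 9.96% and 28.5% of all genes (38.5% in either direction). DESeq2 made 3 higher and 4 lower calls, beside 12.3% and 8.17% of the 20043 genes it gave an adjusted p (20.4% in either direction). Upper-quartile factors, added after seeing the data, made 1 and 4, beside 12.6% and 16.4% (29.1%), and a replicate block made 2 and 4, beside 14.7% and 11.8% (26.5%).

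**Figure D1:**
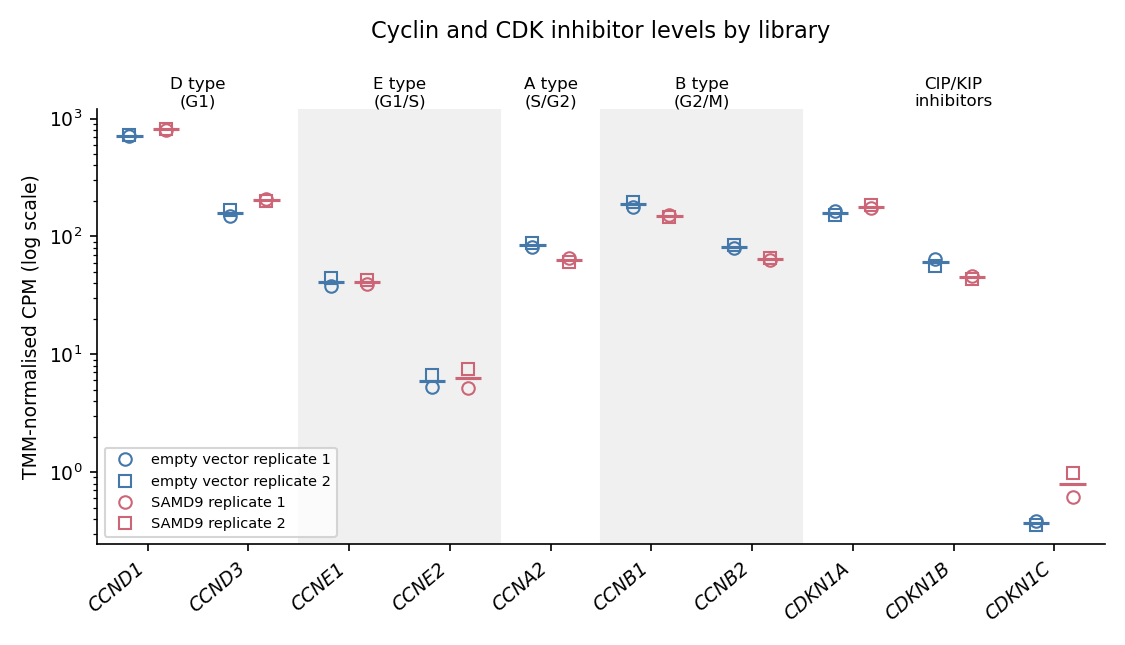
TMM-scaled CPM (log axis) of the 10 genes in each library, with circles for replicate 1, squares for replicate 2 and short bars for the mean of 2 libraries. The SAMD9 points lie below the empty vector points for CCNA2, CCNB1, CCNB2 and CDKN1B, and above them for CCND1, CCND3, CDKN1A and CDKN1C.

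Compared per kilobase of exon length, CCND1 was the most abundant of the 10 transcripts in the empty vector libraries, at 148 ± 2.39 CPM per kb (SD, n = 2). CCNB1 followed with 73.4 ± 4.93 CPM per kb and CDKN1A with 51.4 ± 2.74. CCNA2 (30.1 ± 1.76), CCNB2 (29.3 ± 1.52) and CCND3 (27.3 ± 2.25 CPM per kb) came next, and neighbours in this trio overlapped between libraries. CDKN1B had 21.4 ± 2.01 CPM per kb, CCNE1 16.2 ± 1.80, CCNE2 1.36 ± 0.214 and CDKN1C 0.143 ± 0.00683. In the SAMD9 libraries CCND3 stood above CCNA2 and CCNB2, at 35.0 ± 0.661 CPM per kb against 22.4 ± 1.20 and 22.9 ± 0.472.

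Among the D cyclins, CCND1 (ENSG00000110092, GRCh38 chr11:69641087-69654474, plus strand) encodes cyclin D1, the partner of CDK4 and CDK6. Control libraries measured 708 and 724 CPM, SAMD9 libraries 806 and 817 CPM. The SAMD9 libraries were both higher and the groups did not overlap. The log2 fold change was 0.18 (SE 0.05, 95% interval 0.07 to 0.29), with an edgeR adjusted p of 0.0113. This call rests on the scaling and on each SAMD9 library: with total counts the log2 fold change was -0.0075 (edgeR adjusted p = 0.929), and without SAMD9 replicate 1 or 2 the adjusted p was 0.0945 or 0.140. LTO1, which shares 497 exonic bases with CCND1 on the other strand, was not called (log2 fold change 0.08, edgeR adjusted p = 0.590).

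CCND3 (ENSG00000112576, chr6:41934933-42050357, minus strand) encodes cyclin D3, the D cyclin best known from lymphoid and muscle cells. Its level was 149 and 168 CPM in the controls against 206 and 200 CPM after SAMD9. Both SAMD9 libraries exceeded both controls. The log2 fold change was 0.36 (SE 0.07, interval 0.22 to 0.49, edgeR adjusted p = 0.000236), and 0.17 with total counts (edgeR adjusted p = 0.0487). CCND2, the remaining D cyclin, had too few counts to test.

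Of the E cyclins, CCNE1 (ENSG00000105173, chr19:29811898-29824308, plus strand) measured 38.2 and 44.6 CPM in control libraries against 39.5 and 42.3 CPM after SAMD9. The SAMD9 libraries lay inside the range of the controls. Its log2 fold change was -0.02 (SE 0.09, interval -0.21 to 0.17, edgeR adjusted p = 0.913). CCNE2 (ENSG00000175305, chr8:94879770-94896678, minus strand), its paralog at the same transition, measured 5.31 and 6.63 CPM in controls against 5.18 and 7.51 CPM after SAMD9. Here too the groups overlapped, and the spread between replicates was wide. The log2 fold change was 0.08 (SE 0.20, interval -0.34 to 0.50, edgeR adjusted p = 0.834), an interval wide enough to hold a change of the size seen in CCND3. CCNE2 shares 1629 exonic bases, 37.0% of its exonic length, with INTS8 on the opposite strand. The strand setting of the counting is not given in the sources used here. How reads in that stretch entered the CCNE2 count therefore cannot be told, and its level per kilobase may be affected as well. INTS8, a subunit of the Integrator complex, fell (log2 fold change -0.22, SE 0.08, edgeR adjusted p = 0.0414).

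CCNA2 (ENSG00000145386, chr4:121816444-121823933, minus strand) encodes cyclin A2, which partners CDK2 in S phase and CDK1 in G2. Control libraries had 80.7 and 87.7 CPM and SAMD9 libraries 65.2 and 60.4 CPM. Both SAMD9 libraries were below both controls. The log2 fold change was -0.42 (SE 0.08, interval -0.58 to -0.27, edgeR adjusted p = 0.000152). EXOSC9, an exosome subunit on the opposite strand that shares 254 exonic bases with CCNA2 (9.08% of its length), moved the other way (log2 fold change 0.31, SE 0.10, edgeR adjusted p = 0.0238).

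CCNB1 (ENSG00000134057, chr5:69167010-69178245, plus strand) encodes cyclin B1, the main mitotic partner of CDK1. Levels were 179 and 197 CPM in controls against 152 and 146 CPM after SAMD9. The SAMD9 libraries lay below the controls with no overlap, and the log2 fold change was -0.34 (SE 0.07, interval -0.47 to -0.20, edgeR adjusted p = 0.000379). CCNB2 (ENSG00000157456, chr15:59105078-59125045, plus strand) encodes cyclin B2, a Golgi-associated partner of the same kinase. Controls measured 79.0 and 85.0 CPM, and SAMD9 libraries 63.1 and 65.0 CPM. Again both SAMD9 libraries were lower, with a log2 fold change of -0.36 (SE 0.07, interval -0.51 to -0.20, edgeR adjusted p = 0.000698). The A and B cyclins were called lower under every scaling, filter and left-out library tried.

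**Figure D2:**
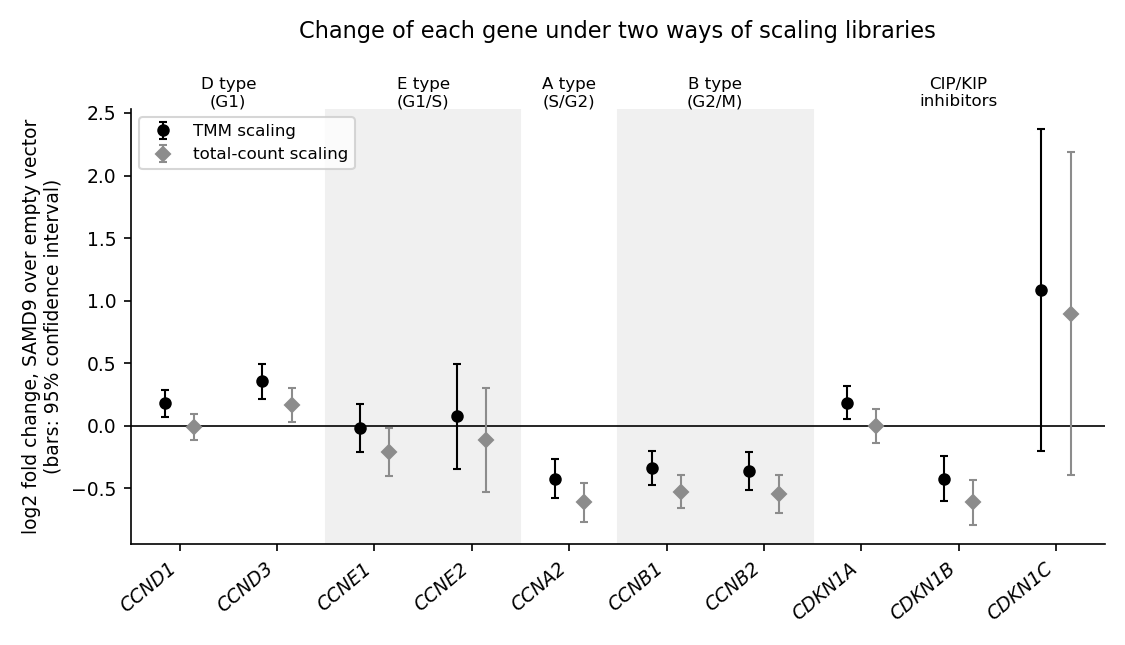
Log2 fold change (SAMD9 over empty vector) of each gene with its 95% interval, under TMM scaling and under scaling by total counts. CCNA2, CCNB1, CCNB2 and CDKN1B lie below 0 under both, whereas CCND1 and CDKN1A move from above 0 to about 0.

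Promoter stretches are shown for the genes that fell, because the A and B cyclins are known for a cell cycle genes homology region (CHR) near the start, bound by the MuvB core, with CCAAT boxes bound by NF-Y upstream. CDKN1A is added as a gene without that arrangement. The windows come from RefSeq (GRCh38.p14), run from 90 to 11 bases before the RefSeq gene start, and are written 5′ to 3′ on the gene's strand. Capitals mark CCAAT, read on either strand, and the CHR. For the CHR the consensus TTTGAA was searched on both strands, together with its variant CTTGAA, the rarer spelling TTCGAA and the looser spelling TTTAAA. In CDKN1A capitals mark the GC box GGGCGG, the letters known for Sp1, here in overlapping copies.
CCNA2, chr4:121823894-121823973, minus strand: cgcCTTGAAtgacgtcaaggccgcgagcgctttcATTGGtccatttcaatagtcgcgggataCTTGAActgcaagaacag
CCNB1, chr5:69167060-69167139, plus strand: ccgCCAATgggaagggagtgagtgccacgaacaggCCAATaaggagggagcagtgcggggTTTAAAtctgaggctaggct
CCNB2, chr15:59105056-59105135, plus strand: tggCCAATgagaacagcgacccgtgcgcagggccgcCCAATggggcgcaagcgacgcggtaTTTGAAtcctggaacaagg
CDKN1B, chr12:12717278-12717357, plus strand: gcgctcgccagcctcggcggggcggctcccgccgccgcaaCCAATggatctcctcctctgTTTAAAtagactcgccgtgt
CDKN1A, chr6:36678624-36678703, plus strand: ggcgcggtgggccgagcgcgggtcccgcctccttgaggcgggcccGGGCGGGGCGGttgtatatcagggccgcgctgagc

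The 4 transcripts that fell all carried a CHR spelling close to the start with a CCAAT box just upstream. The arrangement was defined after these windows had been seen, so this match is a description only and tests no cause. In CCNA2 the CTTGAA nearest the start began at base -28, with 23 bases between it and the CCAAT box. In CCNB1 and CCNB2 the gap was 20 bases, with TTTAAA beginning at -30 and TTTGAA at -29. In CDKN1B TTTAAA began at -30, 15 bases after the CCAAT box. TTTAAA also resembles a TATA box, and a match describes letters only, not a bound site.

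Of the 10 genes, 7 had a RefSeq window, in 9 windows of 300 bases (250 before the start and 50 after it), and CCND1, CCNE2 and CDKN1C had no entry. CCNE1 had a TTTAAA with no CCAAT, and the CCND3 and CDKN1A windows held no CHR spelling. Over all 35116 windows of 27305 genes, 32.2% held a CHR spelling, 34.6% a CCAAT and 12.4% both, and 15786 windows held a GC box. A CHR spelling within 60 bases before the start with a CCAAT at most 60 bases upstream of it occurred in 1.14% of all windows. That arrangement was defined after the members' windows had been seen, so its shares are descriptions only. It was found in 11 of 24 windows of G2/M-timed genes and in 1 of 26 windows of G1/S-timed genes. The deposited annotation lists exons that begin further upstream, covering 40 to 80 of the 80 bases printed for each gene.

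**Figure D3:**
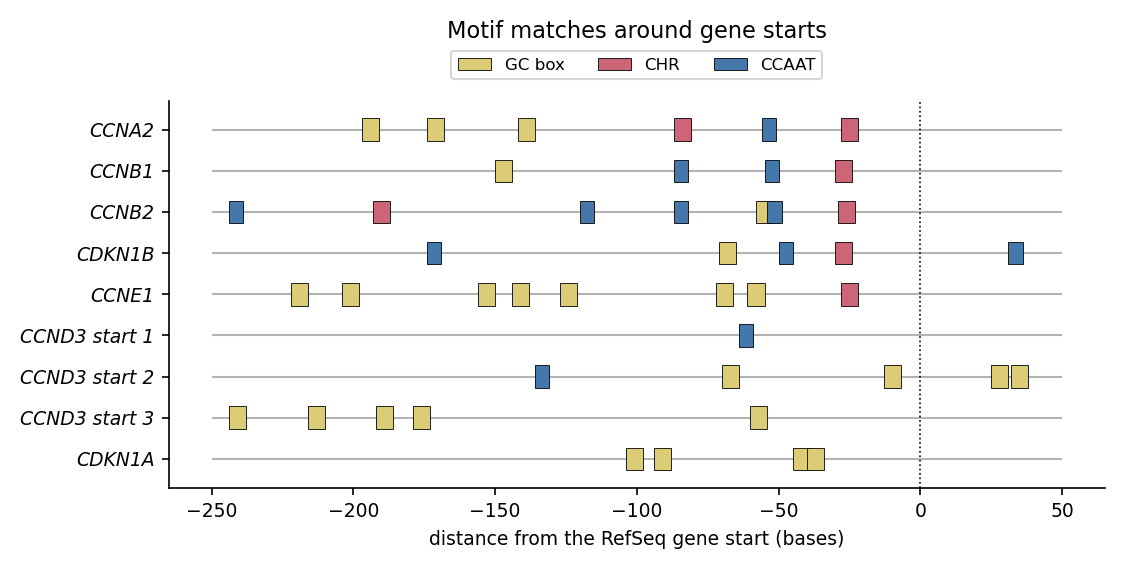
Matches of CHR spellings, CCAAT and the GC box (coloured blocks) against the distance in bases from the RefSeq gene start, 1 line per window. CCNA2, CCNB1, CCNB2 and CDKN1B share a CHR block next to the start with a CCAAT block upstream, and the CCND3 and CDKN1A lines hold no CHR block.

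Among the inhibitors, CDKN1A (ENSG00000124762, chr6:36676460-36687339, plus strand) encodes p21. Controls measured 163 and 151 CPM, and SAMD9 libraries 173 and 184 CPM. The SAMD9 libraries were higher without overlap, by a margin close to the difference between replicates. The log2 fold change was 0.19 (SE 0.06, interval 0.05 to 0.32, edgeR adjusted p = 0.0355). With total counts it was -0.0023 (edgeR adjusted p = 0.982). The call was also lost when empty vector replicate 2 was left out (edgeR adjusted p = 0.113), or SAMD9 replicate 1 (0.0729) or SAMD9 replicate 2 (0.351).

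CDKN1B (ENSG00000111276, chr12:12715058-12722371, plus strand) encodes p27, an inhibitor abundant in quiescent cells. Its level was 64.3 and 56.3 CPM in the controls against 46.4 and 43.5 CPM after SAMD9. Both SAMD9 libraries were below both controls. The log2 fold change was -0.42 (SE 0.09, interval -0.60 to -0.24, edgeR adjusted p = 0.000597), and the call held under every scaling, filter and left-out library tried. CDKN1C (ENSG00000129757, chr11:2883213-2885881, minus strand) encodes p57, the imprinted member of the family. The raw counts were 12 and 12 in controls against 23 and 28 after SAMD9, or 0.384, 0.359, 0.617 and 0.978 CPM. The groups did not overlap, but the log2 fold change of 1.09 had an SE of 0.62 and an interval from -0.20 to 2.37, and was not called (edgeR adjusted p = 0.219). Counts from 1 to 20 were even in 72.9% of cases against 49.7% above 1000, and whether 1 fragment could give more than 1 count is not given in the sources used here. If it could, the counting error of low counts such as those of CDKN1C is larger than their number implies, which was not tested.

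Ratios of raw counts between genes of 1 library do not depend on the scaling. Per count of CDKN1B, CDKN1A had 2.53 and 2.68 counts in controls against 3.72 and 4.23 after SAMD9. The ratio was thus 1.52-fold higher, the widest shift of the 6 ratios computed. CCNB1 over CCND1 went from 0.253 and 0.272 to 0.188 and 0.179, a fold of 0.699. CCNA2 over CCNE1 went from 2.12 and 1.96 to 1.65 and 1.43, a fold of 0.753. CCND1 over CCND3 went from 4.74 and 4.32 to 3.92 and 4.08, a fold of 0.885. In these 4 ratios the groups did not overlap, and each had an exact two-sided permutation p of 0.333 (0.5 after Benjamini-Hochberg adjustment over 6), the smallest that 2 libraries against 2 allow.

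Within the B cyclins and within the E cyclins, the ratios overlapped between groups. CCNB1 over CCNB2 was 2.26 and 2.31 in controls, 2.40 and 2.25 after SAMD9. CCNE1 over CCNE2 was 7.19 and 6.73 in controls, 7.63 and 5.63 after SAMD9. Both had an exact permutation p of 1. As shares of the 7 cyclins per kilobase, the A and B cyclins made up 40.3% and 41.2% in controls against 32.4% and 31.4% after SAMD9. The D cyclins went from 54.6% and 53.2% to 62.4% and 62.9%. Shares of a whole move against each other, so the D share is not separate evidence of a rise.

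**Figure D4:**
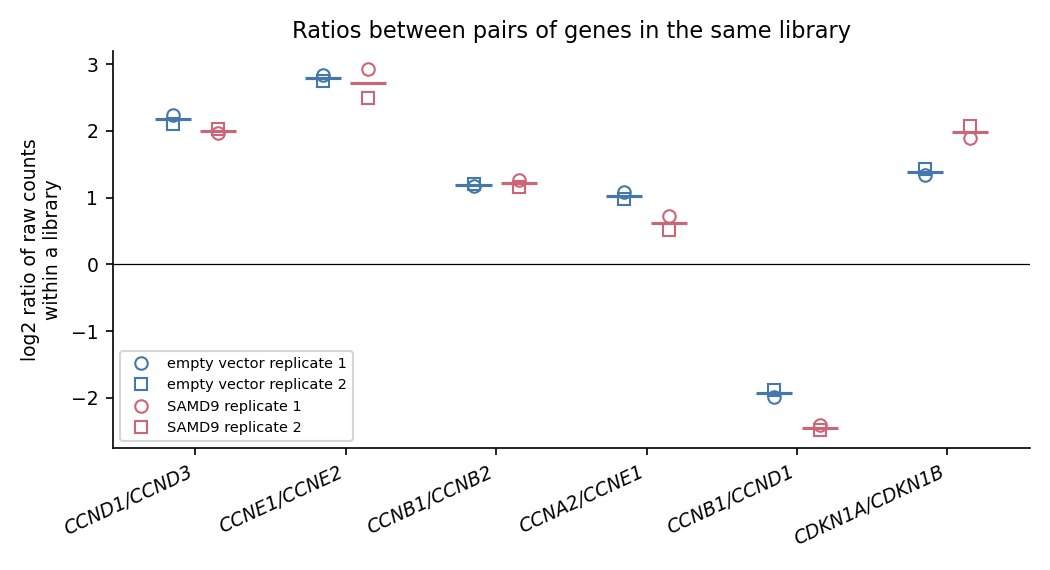
Log2 ratio of raw counts between pairs of genes, by library, with circles for replicate 1, squares for replicate 2 and bars for the group mean. The groups are apart for CCND1/CCND3, CCNA2/CCNE1, CCNB1/CCND1 and CDKN1A/CDKN1B and overlap for CCNE1/CCNE2 and CCNB1/CCNB2.

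The other genes of the pathway were taken as 11 lists of 144 genes, 141 of which were tested: 25 were called higher and 47 lower, or 14 higher and 79 lower with total counts. Together that was 51.1% of those tested, beside 27.5% of all genes and 44.6% of genes averaging at least 5 log2 CPM. With total counts it was 66.0%, beside 38.5% of all genes. The called shares of G1/S-timed genes (36.4%), CDK phosphorylation and the p53 axis (42.9%) lay between 27.5% and 44.6%. Pocket proteins and E2F (7.69%) and DREAM and MuvB lay below 27.5%, and the other lists above 44.6%. No list was tested against these shares. By direction, 15.3% of all genes were called higher and 12.2% lower, or 9.96% and 28.5% with total counts. Of 14 other cyclins, 13 were tested, 2 rose (CCNL1 and CCNT2) and 4 fell (CCNF, CCNO, CCNH and CCNL2), with a median log2 fold change of 0.08. Total counts left 1 that rose and 5 that fell, and DESeq2 2 and 2. Without empty vector replicate 1 or SAMD9 replicate 2 only 2 fell, and without empty vector replicate 2 only 1 rose. CCNF, the F-box cyclin that peaks in G2 and targets proteins for degradation, went from 65.2 to 40.4 CPM (log2 fold change -0.69, SE 0.09, edgeR adjusted p = 1.3e-06). CCNO, a cyclin of multiciliated cells, fell by 0.80 on the log2 scale (SE 0.19, edgeR adjusted p = 0.0023). CCNL1, a splicing-associated cyclin, rose from 79.9 to 136 CPM (log2 fold change 0.76, SE 0.08, edgeR adjusted p = 5.2e-08).

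The INK4 inhibitors bind CDK4 and CDK6 only, and A549 is known for a deletion of CDKN2A. CDKN2A had 0, 0, 2 and 0 counts and CDKN2B had 0 in all 4 libraries. A count of 0 allows up to 3 counts per library, or 0.0756 to 0.102 CPM of the library total, and more if 1 fragment could give more than 1 count. CDKN2C (p18) rose from 41.7 to 55.4 CPM (log2 fold change 0.41, edgeR adjusted p = 0.0021) and CDKN2D (p19) from 6.19 to 9.08 CPM (0.56, edgeR adjusted p = 0.016), neither being called with total counts. CDKN2D was also not called by DESeq2 (adjusted p = 0.094) or without SAMD9 replicate 1 (edgeR adjusted p = 0.19). CDKN3, a phosphatase acting on CDKs, fell by 0.27 on the log2 scale (edgeR adjusted p = 0.042). Its call was lost with DESeq2 (adjusted p = 0.13), and without empty vector replicate 2 (edgeR adjusted p = 0.10) or SAMD9 replicate 1 (0.44).

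Of the 6 kinase genes, 1 rose and 2 fell, with a median log2 fold change of -0.11 (1 and 4 with total counts). CDK2, the partner of cyclins E and A, rose from 28.4 to 41.5 CPM (log2 fold change 0.55, SE 0.10, edgeR adjusted p = 0.00012). CDK1, the mitotic kinase, went from 95.3 to 74.6 CPM (-0.35, SE 0.08, edgeR adjusted p = 0.0011), and CDK6 from 359 to 276 CPM (-0.38, SE 0.06, edgeR adjusted p = 2.6e-05). Of 5 genes that set the inhibitory phosphates of CDKs, WEE1, the kinase that adds one, fell (-0.24, edgeR adjusted p = 0.018), as did CDC25C, a phosphatase that removes it at mitosis (-0.39, edgeR adjusted p = 0.044). Neither was called without SAMD9 replicate 1 (edgeR adjusted p = 0.074 for WEE1 and 0.25 for CDC25C) or without SAMD9 replicate 2 (0.24 and 0.082). The CDC25C call was also lost with DESeq2 (adjusted p = 0.18), without the filter (edgeR adjusted p = 0.056) and without empty vector replicate 1 (0.26). CDC25A (0.10), CDC25B (0.08) and PKMYT1 (0.05) were not called, and their log2 fold changes turned negative with total counts, at -0.085, -0.11 and -0.13.

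Of 13 pocket protein and E2F genes, the transcriptional brake and drivers of S phase entry, only E2F8, an atypical repressor, was called. It went from 16.0 to 11.5 CPM (log2 fold change -0.48, edgeR adjusted p = 0.0073), and the list's median was -0.02. Its call was lost without empty vector replicate 2 (edgeR adjusted p = 0.054) or SAMD9 replicate 2 (0.062). E2F5 (-0.28) and E2F2 (-0.20) followed without a call. With total counts 7 of the 13 were called lower, and with upper-quartile factors 4, beside 28.5% and 16.4% of all genes. Of 8 genes of DREAM and MuvB, which bind CHR elements, LIN52 rose from 9.78 to 18.5 CPM (log2 fold change 0.92, SE 0.13, edgeR adjusted p = 9.2e-06) and LIN54, the subunit that contacts the CHR, fell (-0.39, SE 0.10, edgeR adjusted p = 0.0049, or 0.072 without SAMD9 replicate 2). The other 6 were not called, among them DYRK1A, the kinase of LIN52, at -0.18, and the list's median was -0.0044. With total counts 1 rose and 4 fell.

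Cyclins and p27 are removed by ubiquitin ligases. Of 14 genes of this machinery and its regulators, 2 rose and 7 fell, with a median log2 fold change of -0.16 (2 and 9 with total counts). The number that fell was 4 with DESeq2, 3 without empty vector replicate 2, 2 without SAMD9 replicate 1 and 1 without SAMD9 replicate 2. AMBRA1, the adaptor for degradation of D cyclins, rose from 64.2 to 119 CPM (log2 fold change 0.88, SE 0.07, edgeR adjusted p = 1.1e-09). CKS1B, the cofactor with which SKP2 recognises p27, rose from 59.6 to 87.7 CPM (0.56, SE 0.07, edgeR adjusted p = 3.4e-06). UBE2C, the ubiquitin-conjugating enzyme of the anaphase-promoting complex, went from 79.5 to 58.1 CPM (-0.45, SE 0.08, edgeR adjusted p = 8.3e-05).

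Of 21 genes of the p53 axis, 3 rose and 6 fell, with a median log2 fold change of -0.14 (1 rose and 14 fell with total counts). BBC3, the proapoptotic PUMA gene, rose from 41.8 to 247 CPM (log2 fold change 2.56, SE 0.08, edgeR adjusted p = 1.6e-17). ZMAT3, an RNA-binding p53 target, went from 21.2 to 12.7 CPM (-0.73, SE 0.12, edgeR adjusted p = 8.3e-05), and AEN, an apoptosis-enhancing nuclease, from 230 to 291 CPM (0.34, SE 0.06, edgeR adjusted p = 0.0002, not called with total counts). The third gene that rose was MDM2, the ubiquitin ligase of p53, at 0.30 (edgeR adjusted p = 0.00078), and it too was not called with total counts. Called lower beside ZMAT3 were POLH (-0.44), XPC (-0.37), PHLDA3 (-0.34), PLK3 (-0.32, edgeR adjusted p = 0.034) and GDF15 (-0.18, edgeR adjusted p = 0.040). They were called with total counts as well, a scaling that moves all log2 fold changes down. DESeq2 called 5 genes of this list lower.

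Of 10 known regulators of CIP/KIP transcription, 5 rose and 1 fell, with a median log2 fold change of 0.24 (5 and 2 with total counts). IRF1, an interferon-response factor that can activate CDKN1A, rose from 29.9 to 669 CPM (log2 fold change 4.48, SE 0.07, edgeR adjusted p = 5.2e-23). KLF6, a Krüppel-like factor known to activate CDKN1A, rose from 200 to 700 CPM (1.81, SE 0.06, edgeR adjusted p = 6.5e-17). KLF4 and MYC also rose, and KCNQ1OT1, the antisense transcript of the imprinted domain that holds CDKN1C, fell by 0.41 on the log2 scale (edgeR adjusted p = 0.0081), a call lost without empty vector replicate 1 or SAMD9 replicate 1.

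Genes timed to the same phases as the cyclins were listed without the cyclins themselves. Of 26 G2/M-timed genes, 22 fell, 1 rose and 3 were not called, with a median log2 fold change of -0.42. Of all genes tested, 12.2% were called lower. With total counts 25 fell, beside 28.5% of all genes. CENPF, a kinetochore protein, went from 338 to 218 CPM (-0.63, SE 0.06, edgeR adjusted p = 1.1e-08). TOP2A, the topoisomerase of mitotic chromosomes, went from 471 to 311 CPM (-0.60, SE 0.06, edgeR adjusted p = 4.1e-08), and KIF23, a kinesin of the central spindle, from 159 to 106 CPM (-0.58, SE 0.06, edgeR adjusted p = 1.9e-07). The gene that rose was BUB1, a kinase of the spindle checkpoint, at 0.24 (edgeR adjusted p = 0.021). BUB1 stood at 0.05 with total counts, and was called neither then nor with upper-quartile factors. Nor was it called when either SAMD9 library or empty vector replicate 1 was left out. CCNT2, CCNH, CCNL2, MDM2, POLH, XPC, PHLDA3, PLK3, GDF15, KLF4, MYC, KCNQ1OT1 and BUB1 were named after their values were seen, to complete short counts. The same holds for CDH1, KRT8 and COL1A1 among the cell type markers.

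Of 22 G1/S-timed genes, 8 rose and none fell, at a median of 0.09 on the log2 scale. By total counts 3 rose and 6 fell, so the direction of this list depends on the scaling. Upper-quartile factors gave 5 that rose and 1 that fell, as did leaving out empty vector replicate 1, and 5 rose without SAMD9 replicate 1 and 4 without SAMD9 replicate 2. PCNA, the sliding clamp of replication, rose from 238 to 325 CPM (0.45, SE 0.06, edgeR adjusted p = 7.5e-06). CHAF1B, a histone chaperone subunit, rose from 31.3 to 47.8 CPM (0.61, SE 0.09, edgeR adjusted p = 1.7e-05), and CLSPN, a mediator of the replication checkpoint, from 48.9 to 68.5 CPM (0.48, SE 0.09, edgeR adjusted p = 0.00026).

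**Figure D5:**
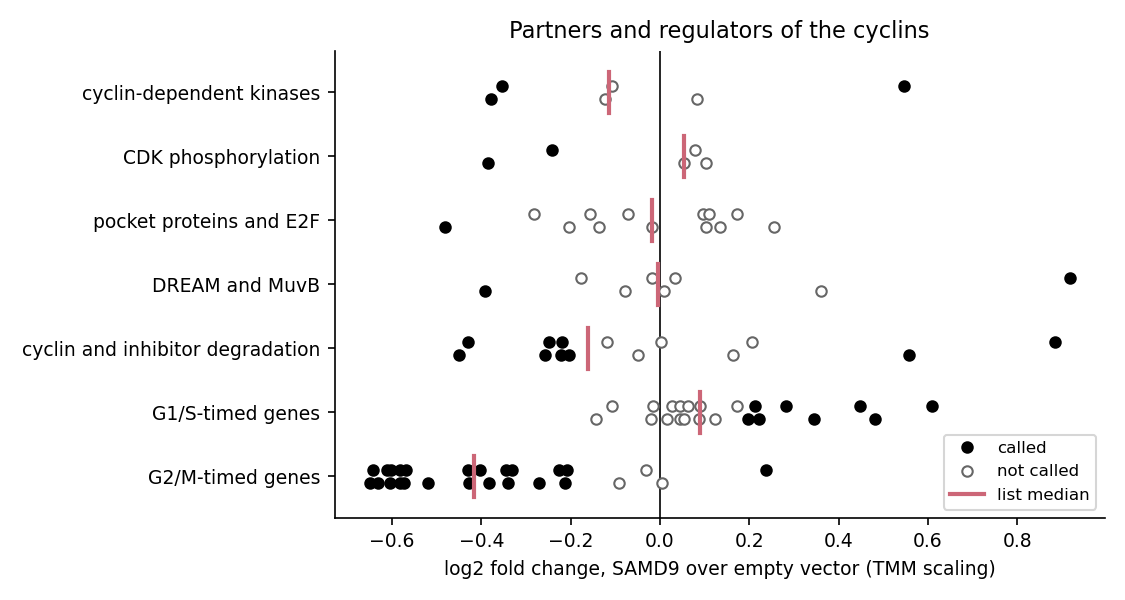
Log2 fold change (SAMD9 over empty vector) of every tested gene in 7 of the lists, with filled points for genes called by edgeR, open points for genes not called and a bar at the list's median. The G2/M-timed genes centre on -0.42 and the G1/S-timed genes on 0.09.

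Over the 4 libraries, the genes whose centred log2 CPM lay nearest to that of CCNA2 were ZNF561, SLC51A and CPTP, at Euclidean distances of 0.0054, 0.017 and 0.020, among 13067 genes. Nearest to CDKN1B were ZDHHC21, SPIRE1 and LINC00662, at 0.023, 0.025 and 0.028. With 4 libraries in 2 groups this likeness rests mainly on the size of the group difference, which was -0.40 to -0.45 in these 6 genes.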

How the data were processed

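The submitters' processing notes name STAR 2.5.1a, featureCounts 1.4.6-p5 (Subread), bcl2fastq and the build GRCh38. For the strand setting, annotation release and read length, the sources used here give nothing. Per the file headers, each library has raw counts per gene beside the authors' deposited CPM (relative to the library total) and RPKM (also per kilobase), which were recomputed from the counts as a check and not used further.

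A gene name table gave symbols for 54836 of 58812 identifiers. The test on the counts was that of edgeR 4.0.16, run in R 4.3.3 (filterByExpr with a minimum count of 10 and total of 15, TMM, quasi-likelihood F-test, Benjamini-Hochberg over 19814 genes, called below 0.05) on all 4 libraries without covariates. The script was tested on simulated data. Alternatives were RLE factors, total counts, no filter, DESeq2 1.42.0, a replicate block, each library left out and, added after seeing the data, upper-quartile factors. Same-numbered libraries did not deviate together (correlation 0.0042 over 19814 genes), so the numbers were not taken as pairs. Replicates differed beyond counting noise (chi-square per degree of freedom 9.35 for empty vector, 5.00 for SAMD9).

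The text names all 10 members, the 3 genes with the lowest p in each list (all where 5 or fewer were tested), and the 3 genes nearest to the cyclin and the inhibitor with the lowest p, among genes with an average of at least 1 log2 CPM; a gene this rule takes is not reported here. Members and lists were chosen with earlier results of these data known. Intervals cover 95%. Counts are not of unique molecules, so floors cover counting error only.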

Additional observations from a re-analysis of the deposited data

How the results depend on the processing

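With RLE factors, without the filter on low counts, and with DESeq2, 3 of the 10 genes were called higher and 4 lower, as in the TMM fit. Beside them, RLE factors called 3053 genes higher and 2411 lower among all 19814 tested. Without the filter, 3000 genes were called higher and 2427 lower among 36173 tested. The 4 lower calls were CCNA2, CCNB1, CCNB2 and CDKN1B in every setting. Total counts gave 1974 genes higher and 5653 lower in all, 1 of the 10 higher, and 14 pathway genes higher and 79 lower. They turned CCND1 to -0.0075, CCNE2 to -0.11, CDKN1A to -0.0023, CDC25A to -0.085, CDC25B to -0.11 and PKMYT1 to -0.13 in log2 fold change. Upper-quartile factors, chosen after seeing the data, gave 1 of the 10 higher, with CCND1 at 0.12 and CDKN1A at 0.12 not called and PKMYT1 at -0.011. The split of all calls was 55.7% higher with TMM, 25.9% with total counts and 43.5% with upper-quartile factors. Leaving out 1 library gave 2291 to 3123 genes higher and 1466 to 2279 lower in all, the lowest without SAMD9 replicate 2, 1 to 3 of the 10 higher, 4 lower, and 20 to 28 pathway genes higher and 29 to 42 lower (29 without SAMD9 replicate 2, 31 without SAMD9 replicate 1). Log2 fold changes then ranged from 0.17 to 0.20 for CCND1, 0.14 to 0.24 for CDKN1A, -0.13 to 0.10 for CCNE1 -0.20 to 0.33 for CCNE2 and -0.033 to 0.15 for PKMYT1. The log2 ratio difference ranged from -0.31 to 0.13 for CCNE1/CCNE2 and from -0.027 to 0.070 for CCNB1/CCNB2. A fit that leaves a group with 1 library takes its spread from the other group. The cause of these shifts was not tested. Under the replicate block, which shares only a number, CDKN1A at 0.19 was no longer called (edgeR adjusted p = 0.0514), leaving 2 of the 10 higher, and 2914 genes were higher and 2330 lower in all. At 12 to 28 counts a library, CDKN1C is limited by depth.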
